A study of Homo sapiens with 1 sample.

Results

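Both arms of 3 microRNA (miRNA) hairpins known to be raised in colorectal carcinoma, miR-21, miR-31 and miR-135b, were examined in the DLD-1 cell line, which was established from a human colorectal carcinoma. The members were hsa-miR-21-5p, hsa-miR-21-3p, hsa-miR-31-5p, hsa-miR-31-3p, hsa-miR-135b-5p and hsa-miR-135b-3p (written without hsa below), 6 of the 2549 miRNAs on the array, chosen by name. The sample was DLD-1 si-NC, cells grown in medium with fetal bovine serum and transfected with a negative control siRNA, and its total RNA was read on 1 single-colour array. The study set such cells beside cells depleted of circLONP2, a circular RNA of the LONP2 gene, and the depleted cells were not analysed here. With 1 array of 1 line there was no comparison between groups and no p-value, and each error below is technical.

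A miRNA hairpin is cut first in the nucleus and then in the cytoplasm, which leaves a short duplex of its 5p and 3p arms. Usually 1 arm is kept in the silencing complex as the guide, and pairing of its seed (bases 2 to 8) with messenger RNAs lowers their output, while the other arm is mostly degraded. In the colon, miR-21-5p is known for repression of the tumour suppressor PDCD4, miR-31-5p for repression of RASA1, a brake on RAS signalling, and miR-135b-5p for repression of APC, the brake on WNT signalling that most colorectal tumours lose.

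The mature sequences are shown since the seeds set which other miRNAs belong to the same target family. RefSeq (GRCh38.p14) held 4 of the 6 members, printed 5′ to 3′ with the seed in capitals. No sequence was matched for miR-21-3p and miR-31-3p.
miR-21-5p: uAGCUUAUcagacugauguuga
miR-31-5p: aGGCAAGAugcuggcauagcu
miR-135b-5p: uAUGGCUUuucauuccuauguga
miR-135b-3p: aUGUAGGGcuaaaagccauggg

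On that build miR-21-5p lies at chr17:59841273-59841294 on the plus strand, within the span of the protein-coding gene VMP1. The guide arm miR-31-5p lies at chr9:21512158-21512178 on the minus strand, within the long non-coding RNA gene MIR31HG. The arms of miR-135b lie at chr1:205448361-205448383 (5p) and chr1:205448323-205448344 (3p) on the minus strand, within the spans of LEMD1 and BLACAT1. The gene table gives spans and not exons, so exonic or intronic position was not read from it.

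The hairpin of miR-135b is shown because 1 of its arms was detected and the other was not. Capitals mark the 5p arm (bases 16 to 38 of 97) and the 3p arm (bases 55 to 76).
MIR135B hairpin: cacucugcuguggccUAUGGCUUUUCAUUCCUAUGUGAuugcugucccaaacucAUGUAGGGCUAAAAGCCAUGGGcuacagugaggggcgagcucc

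Every miRNA had 20 spots on the array. For the 5 arms miR-21-5p, miR-21-3p, miR-31-5p, miR-31-3p and miR-135b-5p these were 2 probes of 10 spots, and for miR-135b-3p they were 4 probes of 5 spots, 14 probes and 120 spots in all. None of the 120 spots was saturated or an outlier by the flags of the scanner software, and the brightest reached 9.35% of the saturation value. Signals are given as background-subtracted spot intensity, or as the total gene signal, which the software sums over the probes of a miRNA on a smaller scale. Negative control spots, 1000 in number, had a median intensity of 0.0894 and a 99th percentile of 16.1.

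Markers of cell types were first read to describe the cells. Their lists were chosen with earlier results of these data known, so they are no check of identity. All 7 intestinal and epithelial markers, such as miR-192-5p and miR-200c-3p, were called detected by the software, at total gene signals of 319 to 9249. Of all miRNAs on the array 44.4% were called detected. The 5 stromal and muscle markers, miR-143-3p and miR-145-5p among them, were undetected, and each had 0 of 20 spots well above background. Of 13 markers of other cell types 4 were detected, namely miR-126-3p of endothelium at 123 ± 8.75, miR-223-3p of myeloid cells at 25.4 ± 1.97, miR-9-5p of neural cells at 22.1 ± 1.71 and miR-451a of red cells at 21.5 ± 1.67. The other blood, liver and neural entries, miR-144-3p, miR-150-5p, miR-122-5p and miR-124-3p, were undetected. The lists were short. For instance miR-142-3p, known from blood cells but on no list, had a log2 total gene signal of 9.44, above every detected member except miR-21-5p. The part of other cell types in the members' signals was not tested.

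The first question was which arms could be measured in the control cells. The software called 5 of the 6 members detected, and 44.4% of all miRNAs on the array. For these 5 arms 20 of 20 spots were well above background, and the dimmest of their 100 spots, at 261, lay above the brightest negative control spot, at 45.4. The exception was miR-135b-3p, with 0 of 20 spots well above background.

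The signal of miR-21-5p stood far above the other members. Its spots ran from 63438 over a median of 67165 to 72307 on the first probe and from 57750 over 63793 to 67557 on the second. The total gene signal was 23842 ± 1688 (error of the software), the 4th highest of the 1133 detected miRNAs. The spots of both probes overlapped.

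The other arm of that hairpin, miR-21-3p, was dimmer but well measured. Its spots ran from 562 over 609 to 655 on the first probe and from 566 over 608 to 644 on the second. These ranges coincided almost fully. The total gene signal was 223 ± 15.8, rank 130 of the detected miRNAs, so 88.5% of them were lower.

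The arms of miR-31 were each read differently by their probes. For miR-31-5p the dimmer probe gave 588 to 625 with a median of 601, and the brighter one 883 to 1009 with a median of 924. For miR-31-3p the dimmer probe gave 456 to 535 with a median of 511, and the brighter one 608 to 711 with a median of 659. On neither arm did the spots of the dimmer probe reach those of the brighter.

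As total gene signals, miR-31-5p lay at 282 ± 20.5 (rank 113) and miR-31-3p at 213 ± 15.2 (rank 135). Both were bright for this array, with 90.0% and 88.1% of detected miRNAs lower.

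The last detected arm, miR-135b-5p, gave spots of 261 to 298 with a median of 283 on the first probe and of 267 to 315 with a median of 298 on the second. The spots of both probes overlapped. Its total gene signal of 106 ± 7.51 had rank 207, with 81.7% of detected miRNAs lower. For miR-135b-3p the 20 spots lay between -3.24 and 3.37 with a median of -1.73, and 16 of them were below 0. The mean over the 5 spots of each of its 4 probes was -1.37, -1.43, -2.14 and -0.373, below the median of the negative control spots in each case.

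**Figure D1:**
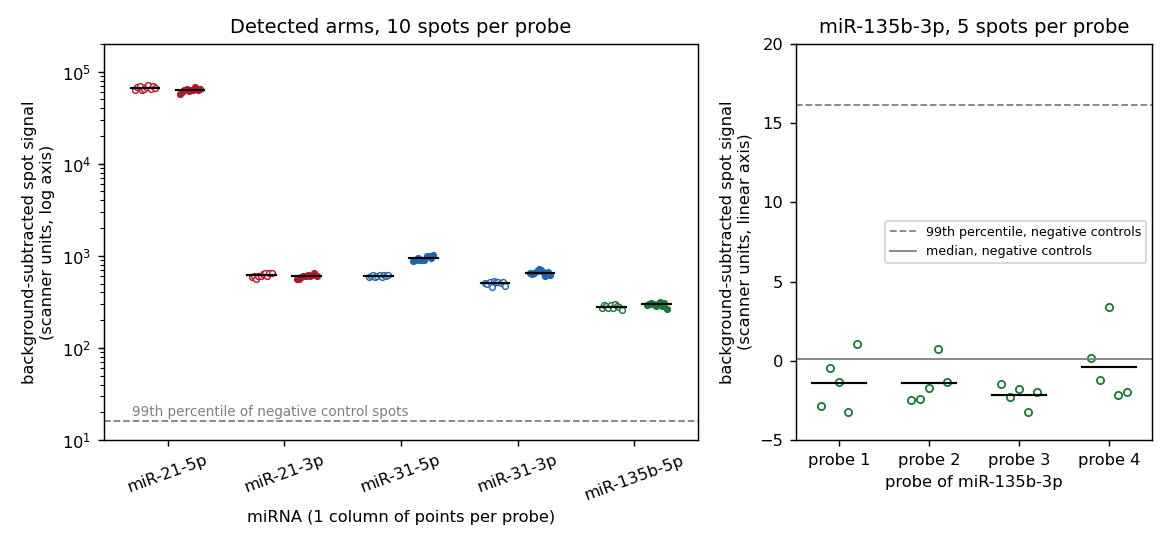
Background-subtracted intensity of every spot of the 6 arms, with 1 column of points for each probe and a black line at the mean of the probe. Left, the 5 detected arms on a log axis; miR-21-5p lies between 57750 and 72307, and the probes of miR-31-5p and of miR-31-3p form separate bands. Right, miR-135b-3p on a linear axis, with all 20 spots between -3.24 and 3.37, below the 99th percentile of the negative control spots at 16.1 (dashed).

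In order of total gene signal the members were miR-21-5p, miR-31-5p, miR-21-3p, miR-31-3p and miR-135b-5p. Each is read by its own probes, so this is an order of signals and not of molecules per cell. The signal of miR-21-5p was 84.4 times that of miR-31-5p. The gap from miR-31-5p to miR-21-3p was 59.6 ± 25.8 (combined error of the software), but the dimmer probe of miR-31-5p, with a mean of 605, fell between the probes of miR-21-3p, with means of 603 and 615. This step is thus not resolved. The step from miR-21-3p to miR-31-3p, 9.83 ± 21.9, was smaller than its error, and that from miR-31-3p to miR-135b-5p was 107 ± 16.97.

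**Figure D2:**
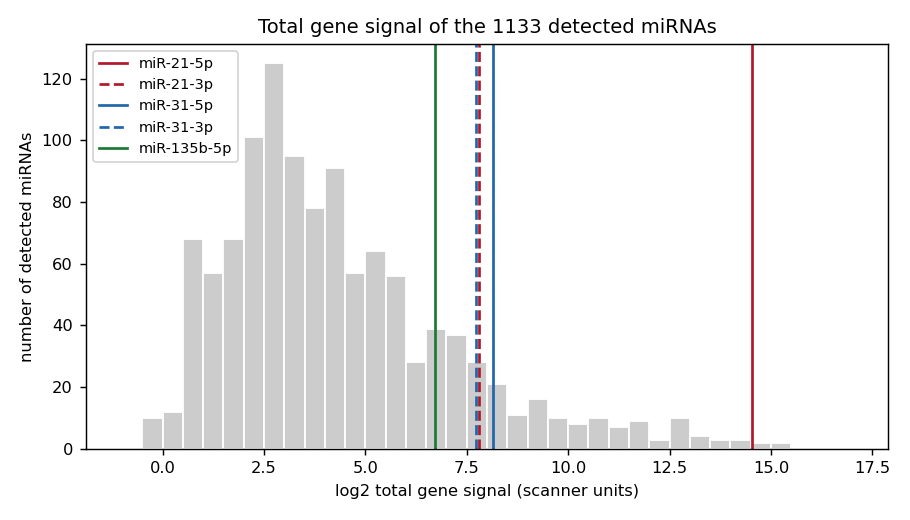
Histogram of log2 total gene signal over the detected miRNAs (x axis in scanner units on the log2 scale, y axis the number of miRNAs). Vertical lines mark the 5 detected members, solid for 5p and dashed for 3p arms. The line of miR-21-5p stands at 14.54, and those of the other members between 6.72 and 8.14, above the median of 3.64.

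To give levels on a scale tied to the array, log2 spot intensity was taken relative to a reference signal of 143, the 75th percentile among the spots of all miRNAs called detected. On that scale miR-21-5p lay at 8.83 ± 0.07 (SD of the 20 spots after removal of probe means). The levels were 2.40 ± 0.06 for miR-31-5p, 2.09 ± 0.07 for miR-21-3p, 2.02 ± 0.07 for miR-31-3p and 1.02 ± 0.06 for miR-135b-5p. All 5 detected members were thus above the reference, and the undetected miR-135b-3p has no level there.

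The balance between arms was described next, as the log2 difference of total gene signals, 5p minus 3p. It was 6.74 ± 0.14 for miR-21 (error of the software), a 107-fold higher signal of the 5p arm, so that 99.1% of the summed signal of the hairpin came from the guide. For miR-31 the difference was 0.41 ± 0.15, a ratio of 1.33. The 2 hairpins therefore differed in arm balance by far more than these errors. Different probes read the arms, so a difference in signal also holds any difference in how the probes respond.

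Among 810 hairpins with both arms on the array, 232 had both arms detected, and 125 of these had the higher signal on the 5p arm. The size of the difference had a median of 2.50 over the 232, with quartiles of 1.24 and 4.49. That of miR-21 exceeded 87.1% of them, whereas that of miR-31 exceeded 9.05%. The miR-31 arms were thus close to equal in signal compared with most hairpins on the same array.

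The choice of probe mattered for miR-31 but not for miR-21. For miR-21 every pairing of a 5p with a 3p probe gave a difference between 6.68 and 6.80. For miR-31 the dimmer 5p probe lay below the brighter 3p probe, at -0.12, and the opposite pairing gave 0.89. Which arm of miR-31 was the brighter is therefore not settled by this array. Probe means of the 2 arms did not overlap for 100 of 121 hairpins with at least 2 usable probes on each arm, or 82.6%, among which was miR-21 and not miR-31.

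For miR-135b the 5p arm alone was detected. Probes each just under 3 times their error would together allow a total gene signal of up to 2.87 for miR-135b-3p, and against that limit the signal of miR-135b-5p was at least 36.8-fold higher, or 5.20 on the log2 scale. The difference was 4.40 in the deposited values, whose lowest value stands for the undetected arm, and 2.62 with normexp background correction, which adds an offset to both arms. The lowest total gene signal called detected on the array was 0.764, and the log2 difference of miR-135b-5p from it was 7.11, which is no bound for an arm of 4 probes. A detected 5p arm with an undetected 3p arm was seen for 163 of the 810 hairpins, and 26 of these had a higher 5p signal than miR-135b. Of 55 hairpins with a 5p signal within 2-fold of miR-135b-5p, 22 had an undetected 3p arm, and miR-135b is itself counted in the 55 and the 22. By number of probes, 0 of 6 miRNAs with 1 probe, 44.8% of 2056 with 2, 39.9% of 173 with 3 and 45.2% of 314 with 4 were called detected, and the part of the layout in the result was not tested.

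**Figure D3:**
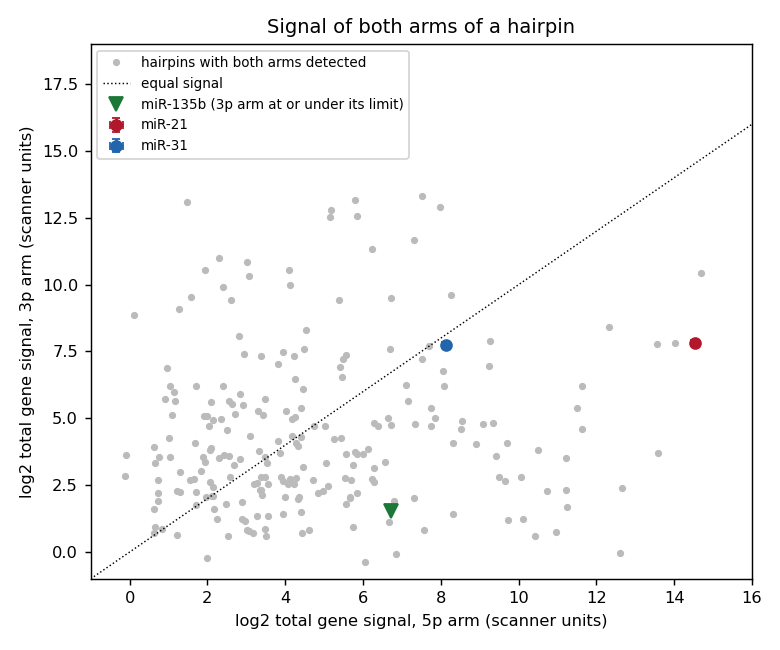
Log2 total gene signal of the 3p arm against that of the 5p arm (scanner units) for the 232 hairpins with both arms detected (grey), with miR-21 and miR-31 in colour and error bars from the software. The dotted line marks equal signal; miR-31 lies 0.41 from it and miR-21 6.74. The triangle shows miR-135b with its undetected 3p arm placed at the log2 of its upper limit, a total gene signal of 2.87.

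Replicate spots gave the error of each probe. Over the 10 probes of the detected members the coefficient of variation (CV) between spots was 2.38% to 5.14%, with a median of 4.54%. It was 5.05% over all 371 usable probes with a mean between 200 and 2000, the band that held 8 of the 10, so the members' probes were about as tight as others of like signal. The standard error of a probe mean was 0.753% to 1.63%, while the software assigned each of these probes an error of 10.01% to 10.05%. The errors of total gene signals quoted here, 7.08% to 7.24% of the value, therefore come mainly from a proportional term in the software and not from the scatter of the spots.

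Read against the spots alone, the probes of some members differed. The brighter minus the dimmer probe was 0.63 ± 0.03 on the log2 scale (SE from replicate spots) for miR-31-5p and 0.38 ± 0.03 for miR-31-3p, ratios of 1.55 and 1.30. For miR-21-5p it was 0.09 ± 0.03, for miR-135b-5p 0.08 ± 0.03 and for miR-21-3p 0.03 ± 0.03. The difference was over 3 standard errors for 3 of the 5, miR-31-5p, miR-31-3p and miR-21-5p, as it was for 65.8% of the 800 detected miRNAs with 2 or more usable probes. None of the 5 reached 1, against 19.2% of the 800. Over the 682 detected miRNAs with 2 usable probes the median was 0.32, so both arms of miR-31 lay above it and the other members below it.

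**Figure D4:**
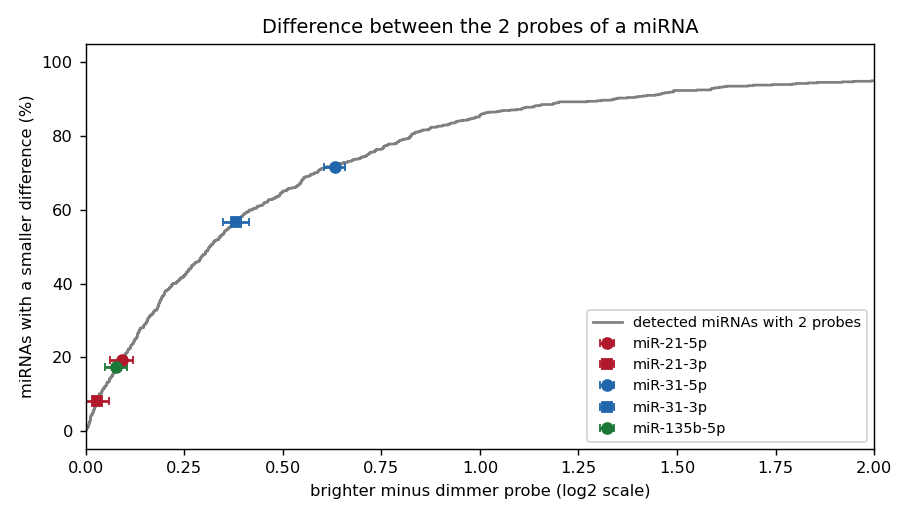
Cumulative share of the 682 detected miRNAs with 2 usable probes (y axis, percent with a smaller difference) by the log2 difference between the brighter and the dimmer probe (x axis, shown up to 2). Coloured points are the members, circles for 5p and squares for 3p arms, with bars of 1 SE from replicate spots. The arms of miR-31 lie at 0.63 and 0.38 and the other members at 0.09 or below.

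The seeds were then used to find family members on the array, out of 2248 of its miRNAs with a matched sequence. The seed of miR-21-5p was shared by miR-590-5p, and that of miR-135b-5p by miR-135a-5p, printed here to show how far each likeness goes beyond the seed.
miR-590-5p: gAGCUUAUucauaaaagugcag
miR-135a-5p: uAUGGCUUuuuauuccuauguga

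The sequence of miR-590-5p matched miR-21-5p at 8 of 22 positions. Its total gene signal was 680 ± 48.3, and that of miR-21-5p was 35.1 times as high. In contrast, miR-135a-5p matched miR-135b-5p at 22 of 23 positions and carried the single substitution C11U, counted from 1 at the 5′ end of miR-135b-5p.

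The total gene signal of miR-135a-5p was 26.4 ± 2.004, with 20 of 20 spots well above background, and that of miR-135b-5p was 3.99 times as high. Its probes had means of 80.1 ± 7.98 (SD, 10 spots) and 64.4 ± 3.92 (SD, 10 spots), below every spot of miR-135b-5p. How much of either signal came from the near-identical partner was not tested. Among the 2248, no other miRNA shared the seed of miR-31-5p or of miR-135b-3p. The seed of miR-135b-3p is shared by miR-135a-2-3p, which matched it at 17 of 22 positions but is not on the array.

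The other arms of those family hairpins were read too. For miR-590 the 3p arm was detected at 11.9 ± 0.916, and for miR-135a at 6.43 ± 0.594 with 11 of 20 spots well above background. The probes of miR-590-3p had means from 7.37 to 80.6. The 3p arm of miR-135a was thus called detected while that of miR-135b was not. The 3p arms of miR-135a and miR-135b both had 4 probes of 5 spots. The usable probes of miR-135a-3p had means of 27.6 and 22.8, a little above the 99th percentile of the negative control spots. Its other probes had means of 9.90 and 10.00, below that percentile, and 0 of their kept spots were well above background.

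Other miRNAs linked to colorectal carcinoma were read as a setting for the members. All 11 on a list known to be raised there were detected, with a median log2 total gene signal of 9.83, beside 7.80 for the 5 detected members and 3.64 for all detected miRNAs. That list holds a single arm of each hairpin, whereas the members hold both arms. The members' median of 7.80 is the value of miR-21-3p, so the medians of these sets are not like for like. The lowest of the 11 was miR-155-5p, an immune-linked miRNA, at 8.85 ± 0.943. Of 10 miRNAs known to be lowered in colorectal carcinoma 5 were detected, a share close to the 44.4% of all miRNAs, with a median of 6.29. These were miR-378a-3p at 271 ± 15.99, miR-195-5p at 178 ± 16.03, miR-30a-5p at 78.2 ± 6.75, miR-497-5p at 7.05 ± 0.851 and miR-139-5p at 3.27 ± 0.580. The undetected entries, miR-143-3p, miR-145-5p, miR-1-3p, miR-133a-3p and miR-133b, are known from muscle and stroma. No normal colon sample was analysed here, so neither list was set against normal tissue.

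Finally, the deposited processed values, on the log2 scale, were set beside log2 total gene signals. For miR-21-5p the deposited value was 14.07, which is 0.47 below the scanner value. The deposited values of miR-31-5p, miR-21-3p, miR-31-3p and miR-135b-5p were 8.22, 7.84, 7.76 and 6.72, and differed from the scanner values by 0.08, 0.04, 0.02 and 0.003. Bright miRNAs in general had lower deposited values, though the brightest of all differed by only 0.01 and the next by -0.08. The median difference was -0.44 over the 11 with a signal of 10000 and over, beside 0.03 over the 105 with a signal of 100 to 300. In consequence the arm difference of miR-21 was 6.23 in the deposited values, against 6.74 in the scanner values. The deposited value of miR-135b-3p was 2.32, the log2 of 5 and the lowest value of the table, so it stands for an undetected miRNA and not for a level.

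**Figure D5:**
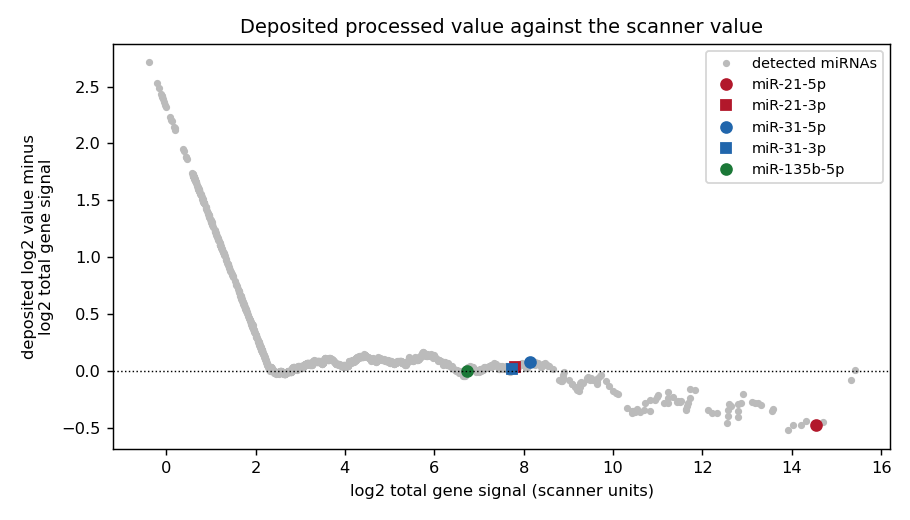
Deposited log2 value minus log2 total gene signal (y axis) against log2 total gene signal (x axis) for the detected miRNAs (grey), with the members in colour, circles for 5p and squares for 3p arms. The 4 dimmer members lie within 0.08 of 0 (dotted line) and miR-21-5p at -0.47. The steep line at the left is made by dim detected miRNAs that share nearly the same deposited value, just above the lowest of the table.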

How the data were processed

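Total RNA of 1 sample of DLD-1 cells with a negative control siRNA was read on 1 single-colour Agilent miRNA array designed on hg19. Per the labels it was labelled with Cyanine 3-pCp, while the methods of the study describe labelled cDNA, which the values do not settle. The deposited scanner file, made with Feature Extraction 11.0.1.1, holds the spot intensity after background subtraction, not normalized between arrays, and 0 or 1 flags and other software values for detection, outliers and background. Undetected miRNAs carry a placeholder of 0.1. The authors also deposited log2 values, quantile normalized in GeneSpring. How the floor was set is not given in the sources used here.

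Spots were taken by miRNA name from the rows of non-control probes. Spots with an outlier flag, 4.51% of those for miRNAs and none of the members, were excluded. A probe was usable where at least 50% of its spots were well above background. Levels are log2 intensity minus that of the 75th percentile among spots of miRNAs called detected. No test was run, since there is 1 array, and the number of arrays limits the precision. Alternatives were other detection rules, another reference, normexp (offset 50, limma 3.58.1 in R 4.3.3, on the median spot signal, as the file has no mean), flagged spots kept, dim probes kept, centring by 16 blocks of the array, other measures of an arm and the deposited values. Python 3.11.15, numpy 2.4.6, pandas 2.3.3 and matplotlib 3.10.9 were used, and the calculations were tested on simulated data. The named miRNAs are all 6 members, every miRNA with a shared seed among those on the array with a matched sequence, and the entries of the lists of colorectal and marker miRNAs that go against their list, other entries being given as counts and examples. Also named are miR-142-3p, which is on no list, and miR-135a-2-3p, a seed partner that is not on the array. The members and lists were chosen with earlier results of these data known.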

Additional observations from a re-analysis of the deposited data

How the results depend on the processing

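Over 18 results 72 alternative values were computed, of which 49 stayed within the limit set for them, 22 moved and 1 reversed. These counts are no measure of robustness, since some of the 49 could not move. In addition, the median level repeats the values of miR-21-3p, and the median probe difference those of miR-21-5p. The probe pairings and the summed error limit were chosen after seeing the data. The count of 5 detected members was the same under all 4 other detection rules. The median level of the detected members, 2.09, was 4.53 with the percentile over all miRNA spots, whose reference is lower (26.3), and 1.74 with normexp. The arm difference of miR-21 was 6.23 in the deposited values. That of miR-31, 0.41, reversed to -0.12 for the dimmest 5p probe against the brightest 3p probe and was 0.89 for the opposite pairing. The log2 difference of miR-135b-5p from the lowest detected signal, 7.11, was 5.20 from the limit of 3 times the summed error, 4.40 in the deposited values, whose floor is higher, and 2.62 with normexp, whose offset is added to both arms. The median CV of the members fell from 4.54% to 3.37% once blocks of the array were centred. The median gap of the members from scanner to deposited value, 0.02, was -1.42 against the mean log2 spot signal, a larger scale. Of 40 values for single miRNAs 13 moved. Keeping outlier spots or dim probes could change only the reference, since the members had no outlier spot and miR-135b-3p has no log2 or CV at means below 0; for the same reason its arm difference could not be had from mean log2 spot signals or from the brightest probe. No paired analysis was possible because there is 1 array, and no replicate could be left out. Signal over background limits miR-135b-3p alone among the members.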
